A study of Mus musculus with 16 samples.

Results

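The genes described here are 9 regulators of the otic placode, the patch of ectoderm that forms the inner ear, and of the prosensory tissue that grows from it: Pax2, Pax8, Eya1, Eya4, Six2, Gata2, Gata3, Lmx1a and Tbx1. They were taken by name from 21755 protein-coding genes of GENCODE vM21 on chromosomes 1 to 19 and X, and each was placed on a deposited list of 6798 chromatin loops. Micro-C, in which fixed chromatin is digested by micrococcal nuclease and neighbouring fragments are ligated so that sequenced pairs record contacts, was performed in 4 replicates of whole cochlea from C57Bl/6 mice. The sample labels give the age as P0 (the day of birth) and the study's design text as P0/1. No mutant, treatment or control group was part of the comparison, and the tissue was a mixture of hair cells, supporting cells, neurons, mesenchyme and other cells, so that a loop cannot be assigned to a cell type. The study calls replicate 4 a technical replicate in its results and a biological one in its supplement.

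In the early ear, Pax2 and Pax8 act as paired-box transcription factors of the placode, and the Eya proteins are coactivators and phosphatases that work with homeodomain factors such as Six2 in a shared network with the Pax genes. Gata2 and Gata3 are zinc finger factors, Lmx1a is a LIM homeodomain factor and Tbx1 is a T-box factor, and all of them are used again in later steps of ear patterning. Genes of this kind are often regulated by enhancers at a distance, and a loop on a contact map joins a pair of positions that met more often than their surroundings.

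A loop here is a pair of 10 kb bins, called anchors, that the authors' caller Mustache found in the contacts of the merged replicates. Each loop carries a false discovery rate (FDR), which lies below 0.1 throughout the list, and a detection scale. Since the replicates had been merged before calling, the values have no spread between replicates and no test between samples was possible. The list does not give the read depth behind a loop. The loops at the 9 genes are therefore given beside the same measure over all protein-coding genes or all loops. An anchor was counted as near a gene when it lay within 100 kb of the start site, the 5′ end of the gene, and a loop spanned a gene when the whole gene body lay between its anchors. All coordinates are 1-based positions of mm10.

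Most of the 9 genes had an anchor near the start site and a loop around the gene. A start site in an anchor bin was rarer than a spanned gene, as it was over all genes. An anchor lay within 100 kb of the start site in 8 of the 9 genes, all but Pax2, against 62.7% of all protein-coding genes. A loop spanned 8 of the 9 genes, all but Eya4, against 28.1% of all genes. An anchor lay in the body of 4 genes, Eya1, Eya4, Six2 and Gata3, against 24.1% of all genes. The start site fell in an anchor bin in 2 genes, Eya4 and Six2, against 7.1% of all genes. This count uses the 5′ end of the gene. Coding transcripts of Eya1 and Gata3 that begin farther inside the gene also had their start in an anchor bin. The median distance from the start site to the nearest anchor was 3.89 kb over the 9 genes and 56.6 kb over all genes. With only loops of FDR below 0.05 these medians were 9.24 and 74 kb, and below 0.01 they were 9.33 and 152 kb.

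**Figure D1:**
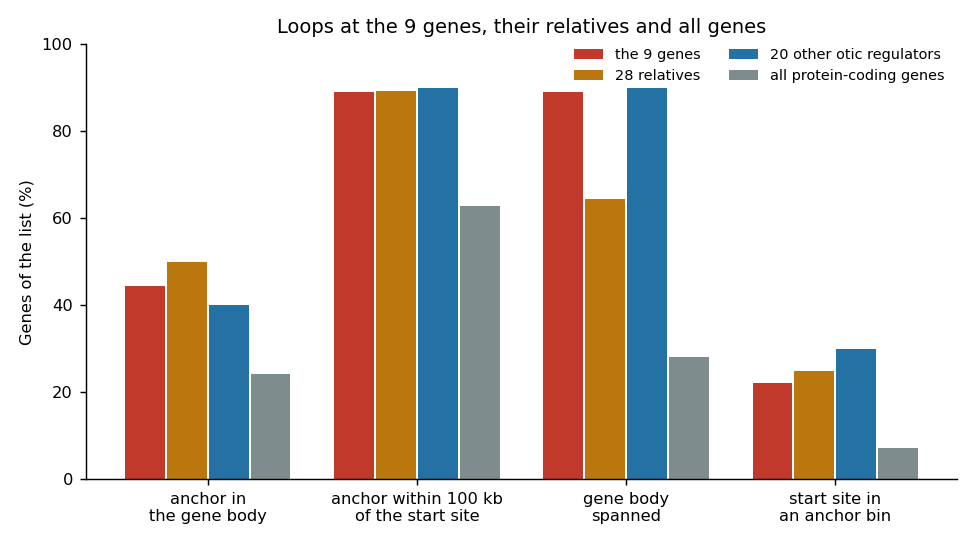
Share of genes (%) with a loop anchor in the gene body, with an anchor within 100 kb of the start site, spanned by a loop, and with the start site in an anchor bin, for the 9 genes, 28 relatives (paralogs and Dach1 and Dach2), 20 other otic regulators and all 21755 protein-coding genes. The 9 genes stand at 88.9% for spanned and the whole set of genes at 28.1%, while the bars for an anchor in the gene body lie closer together (44.4% and 24.1%).

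Gene length and gene density differ between these genes and the rest. Over all genes, longer genes more often held an anchor in the body, and the spanned share fell as coding neighbours rose in number. The 9 genes had a median length of 55 kb, against 17.4 kb over all genes. The median number of other coding start sites within 500 kb was 8 for the 9 genes and 16 for all genes, and 5 of the 9 (Eya1, Eya4, Six2, Gata3 and Lmx1a) were among the 5746 genes with 0 to 8 such neighbours. Of those 5746 genes, 36.6% were spanned and 71% had an anchor within 100 kb, against 21.2% and 48% of the 5223 genes with 29 to 72 neighbours. The 5591 genes with 9 to 16 neighbours stood at 30.6% and 73.3%, so the share with an anchor within 100 kb did not fall at every step. The part of length and density in the counts at the 9 genes was not tested.

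In all, 30 distinct loops touched, neighboured or spanned the 9 genes. Of these, 22 had an anchor in a gene or near its start site, 14 spanned a gene, and 6 did both. Their distance from anchor to anchor ran from 110 to 1620 kb with a median of 475 kb, while the median of the whole list was 280 kb. The median was 335 kb for the 22 loops in or near a gene and 440 kb for the 14 spanning loops. A longer loop has more room to enclose a gene, so choosing loops that span a gene can itself raise the median. The same medians for loops in, near or spanning all genes are not given here. These loops therefore cannot be called long for loops at genes. The median FDR was 0.00905, close to the 0.0113 of all loops, and 26 of the 30 loops (86.7%) had an FDR below 0.05, against 78.8% of the list.

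**Figure D2:**
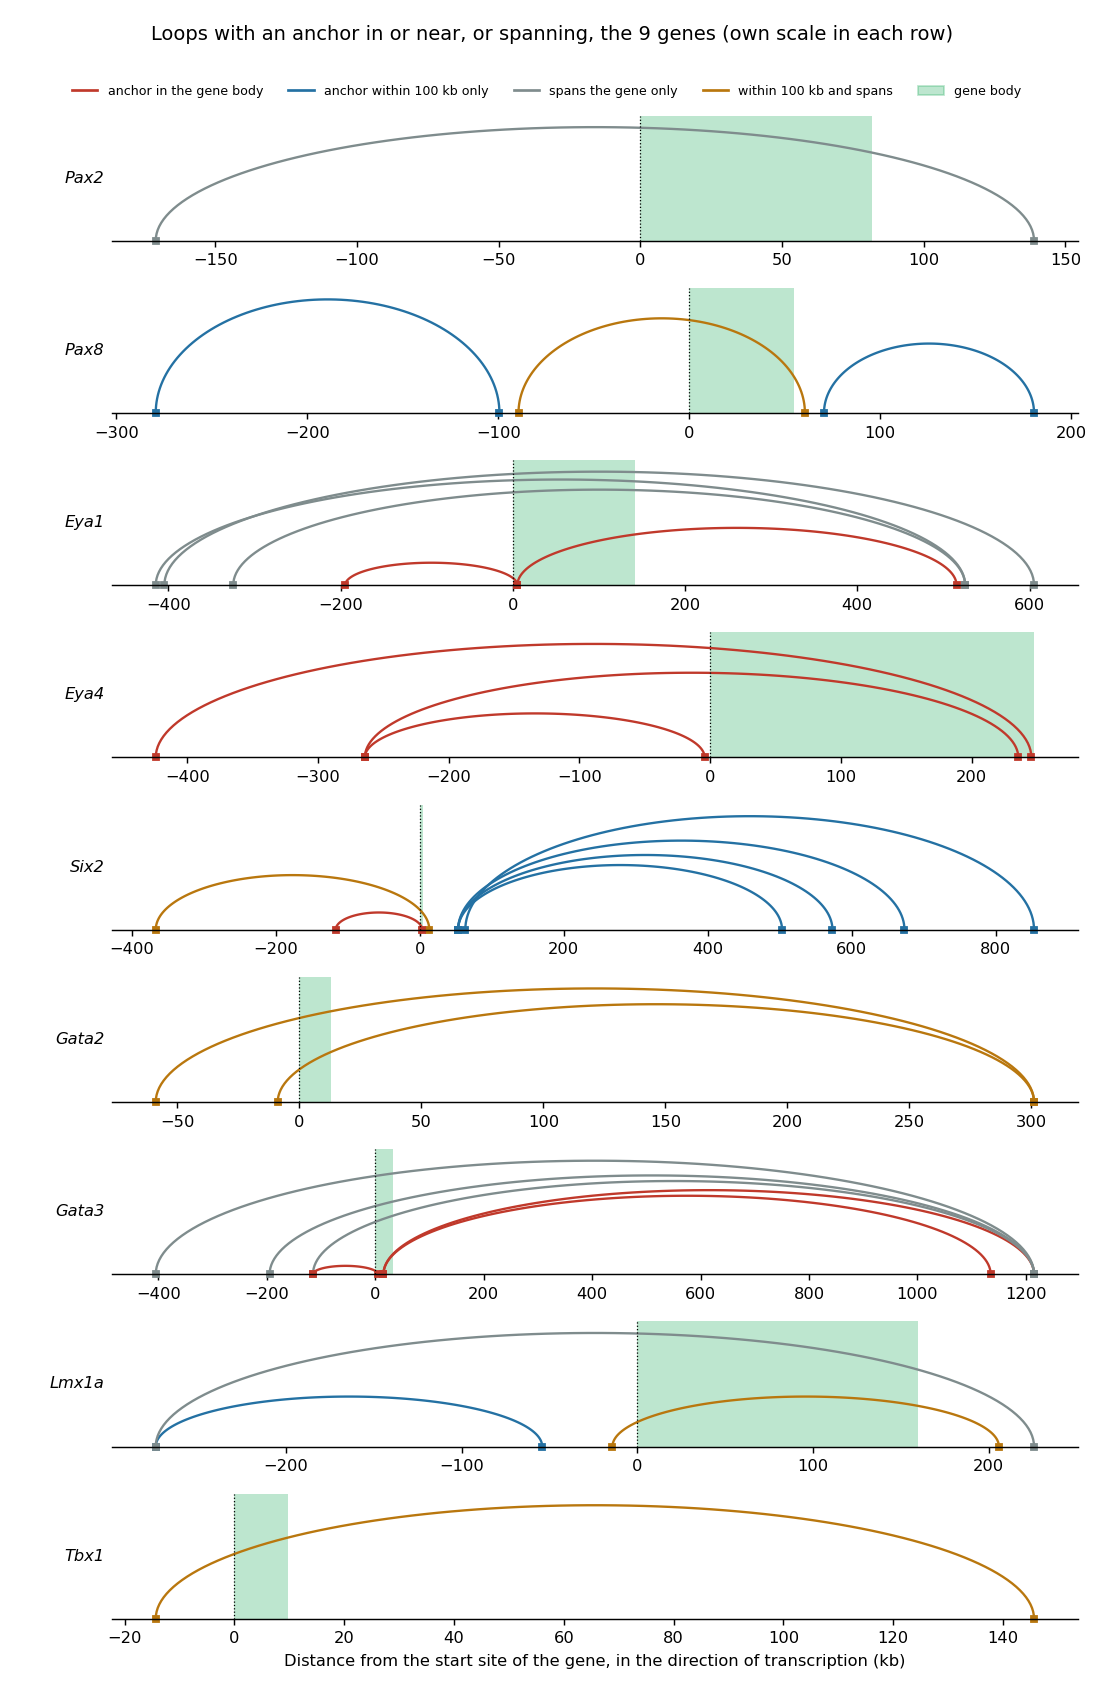
Loops at each of the 9 genes, with the distance from the start site in the direction of transcription (kb) on the horizontal axis, which has its own scale in each row. Arcs join the centres of the anchors, squares mark the anchors, shading marks the gene body, and colour tells loops with an anchor in the gene from those near it or around it. Eya1, Gata3 and Six2 carry 5 or 6 loops each, and Pax2 and Tbx1 carry 1 loop each that encloses the gene.

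Pax2 is needed for the outgrowth of the cochlear duct, and it had the sparsest locus of the set. The gene lies on the plus strand at chr19:44756045-44837871 (ENSMUSG00000004231.15), and no anchor lay in it or within 100 kb of its start site. A single loop of 310 kb enclosed it, from chr19:44580001-44590000 to chr19:44890001-44900000, with an FDR of 0.000181. Its anchors lay 166 kb upstream and 134 kb downstream of the start site, and Pax2 was the only coding gene between them. Neither anchor held an annotated gene. By its nearest anchor Pax2 was farther than most genes, since 68.7% of protein-coding genes had a nearer anchor, yet its loop had a lower FDR than all but 10.5% of the list.

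Pax8, which acts beside Pax2 in the placode and is best known for its role in the thyroid, lies on the minus strand at chr2:24420560-24475599 (ENSMUSG00000026976.15). It was enclosed by a loop of 150 kb with an FDR of 0.00232, with Pax8 again the only coding gene between the anchors. The downstream anchor, chr2:24410001-24420000, ended 560 bases from the 3′ end of the gene and lay in Psd4, an exchange factor for small GTPases. The upstream anchor, chr2:24560001-24570000, held the start of the lincRNA Gm13417, 84.4 kb from the Pax8 start site. On both sides a further loop began in the neighbouring bin and ran away from the gene. The downstream loop joined Psd4 to the start of Il1f10, an interleukin gene, over 110 kb with an FDR of 0.0975, and the upstream loop reached Cacna1b, which encodes a calcium channel subunit, over 180 kb with an FDR of 0.0651. Both had a high FDR for this list, with 99% and 86% of all loops at a lower FDR. Pax8 thus sat in an enclosing loop flanked by a pair of loops that faced outwards, and none of their anchors touched the gene.

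Eya1, the coactivator mutated in branchio-oto-renal syndrome, was the centre of loops that left its promoter end in both directions. The gene lies on the minus strand at chr1:14168954-14310235 (ENSMUSG00000025932.14), and its anchor chr1:14300001-14310000 covered exons 1 to 3 of transcript Eya1-201. The most upstream start, that of Eya1-203, lay 235 bases outside this bin, while the starts of Eya1-205, Eya1-206, Eya1-207 and Eya1-209 lay in it. From this bin, a loop of 200 kb with an FDR of 0.00501 ran upstream to chr1:14500001-14510000, and a loop of 510 kb with an FDR of 0.026 ran downstream, past the 3′ end, to chr1:13790001-13800000. Neither partner held an annotated gene. Only 1 other coding start site lay within 500 kb of that of Eya1.

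The same interval was closed by 3 longer loops that each held Eya1 as the only coding gene between the anchors. They measured 850, 940 and 1010 kb, with FDRs of 0.0293, 0.00903 and 0.0278. The shorter pair shared the anchor chr1:13780001-13790000, which adjoined the downstream partner of the promoter loop. The longest ran from Xkr9 to chr1:14710001-14720000, the bin beside the upstream anchor of the 940 kb loop. Of all protein-coding genes, 2% were spanned by 3 loops, and Eya1 and Gata3 were the members in that class. The nearest other anchor, chr1:14080001-14090000, belonged to a loop of 120 kb with an FDR of 0.0743 that lay wholly downstream of the gene.

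Eya4, mutated in a dominant form of progressive deafness, showed another arrangement, with anchors at both ends of the gene and no loop that counted as spanning it. It is the longest gene of the set, 247824 bases on the minus strand at chr10:23102963-23350786 (ENSMUSG00000010461.15). The bin at its start site, chr10:23350001-23360000, joined chr10:23610001-23620000 over 260 kb with an FDR of 0.0576. The same upstream bin, in the lincRNA 4930520K02Rik, also joined the 3′ part of the gene, chr10:23110001-23120000 with exons 14 to 18 of transcript Eya4-201, over 500 kb with an FDR of 0.0112. The adjacent bin, chr10:23100001-23110000 with exons 18 and 19, joined chr10:23770001-23780000 over 670 kb with an FDR of 0.00201. That bin covers the 3′ end of the gene and begins beyond it, so whether this loop encloses Eya4 cannot be told at this bin size. All 3 loops therefore ran from the gene to positions upstream of its 5′ end, and of these the call at the start site had the highest FDR. That bin held the starts of Eya4-206 and Eya4-208, and the starts of Eya4-201 and Eya4-202 lay 114 and 98 bases outside it, a distance that bins of 10 kb cannot resolve.

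An anchor in the body of a long gene is common in this list. Among genes within a factor of 2 of the length of Eya4, 72.5% held an anchor, and for the lengths of Eya1 and Lmx1a, the latter without an anchor, the shares were 60.2% and 63%. For Six2, which is 3998 bases long, the share was 8.57%, and for Gata3 it was 25.3%. Of the 9 loops with an anchor in a gene of the set, the partner lay upstream of the gene in 6 and downstream in 3. All 3 loops of Eya4 were among the 6. The same split over all genes is not given here, so no preference for a side can be read from it.

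Six2 is a homeodomain factor that keeps nephron progenitors undifferentiated in the kidney and is also expressed in craniofacial mesenchyme. It lies on the minus strand at chr17:85684277-85688274 (ENSMUSG00000024134.11), and the whole gene fits in the anchor chr17:85680001-85690000. This bin joined chr17:85800001-85810000, in the lincRNA Gm29418, over 120 kb with an FDR of 0.0188. The next bin, chr17:85670001-85680000, began a loop of 380 kb that enclosed Six2 alone and ended in Srbd1, with an FDR of 0.000102, the lowest of the 30 loops. It stood at rank 500 of 6798 by FDR. Both loops left in the upstream direction of Six2.

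The other 4 loops within 100 kb of the Six2 start site belonged to the side of Six3, a paralog of forebrain and eye development whose start site lies 74.7 kb away. The anchor chr17:85620001-85630000 lay in Six3 and joined a bin 790 kb farther left with an FDR of 0.00229. The bin beside it, chr17:85630001-85640000, held no annotated gene and took part in 3 loops of 620, 520 and 450 kb, with FDRs of 0.0277, 0.000229 and 0.00151. Their partners lay in Ppm1b, a protein phosphatase gene, and at a pair of bins in Camkmt, a calmodulin methyltransferase gene. Between the start sites of Six3 and Six2 stood 4 anchor bins. The 4 loops of the bins on the Six3 side all ran left, the 2 loops of the bins on the Six2 side both ran right, and no anchor lay in the 30 kb between them, chr17:85640001-85670000. In this list, 0 loops joined the sides and 0 loops enclosed both genes. A pair that was not called is not shown to lack contact.

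Promoter sequences show what the anchor bins at the start sites hold. The RefSeq table of GRCm38.p6 gave 13 promoters (250 bases before to 50 after a start) for 8 of the 9 genes. It held none for Eya1, so the starts in the Eya1 anchor bin could not be read. The Eya4 starts in it lay in the bin beside the Eya4 anchor, which is not an anchor itself. Those of Six2 and Gata3 were the only ones of these 13 with their start in an anchor bin, and they are printed 5′ to 3′ on the strand of the gene, at chr17:85688205-85688504 and chr2:9878551-9878850. Capitals mark GGGCGG on either strand (a GC box), CCAAT and AGATAA on either strand, the last being letters that GATA factors bind.
Six2 promoter: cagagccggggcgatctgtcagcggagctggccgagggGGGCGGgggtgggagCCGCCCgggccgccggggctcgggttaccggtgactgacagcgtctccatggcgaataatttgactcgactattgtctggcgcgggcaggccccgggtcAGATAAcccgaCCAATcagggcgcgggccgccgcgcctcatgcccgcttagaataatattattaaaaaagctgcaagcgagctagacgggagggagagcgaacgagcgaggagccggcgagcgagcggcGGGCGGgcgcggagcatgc
Gata3 promoter: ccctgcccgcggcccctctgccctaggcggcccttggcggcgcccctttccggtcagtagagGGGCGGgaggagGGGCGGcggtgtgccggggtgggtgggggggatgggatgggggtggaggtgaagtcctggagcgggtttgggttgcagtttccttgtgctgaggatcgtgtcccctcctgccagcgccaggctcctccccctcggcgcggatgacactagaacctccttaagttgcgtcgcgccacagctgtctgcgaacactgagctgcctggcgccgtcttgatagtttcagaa
The Six2 promoter held 37 CpG and 3 GC boxes, with 1 match each to CCAAT and AGATAA, and the Gata3 promoter held 22 CpG and 2 GC boxes. Over 32619 promoters of the same length, the median was 7 CpG, and the share with a match was 35.9% for GGGCGG, 37.6% for CCAAT, 11.2% for AGATAA and 13.7% for TATAAA, which none of the 13 promoters held. A match describes letters and not a bound site.

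Gata3, whose loss of a copy causes deafness with hypoparathyroidism and renal disease, had the longest loops of the set. The gene lies on the minus strand at chr2:9857078-9890034 (ENSMUSG00000015619.10). The bin chr2:9870001-9880000, which holds the start of transcript Gata3-201 and the antisense gene Gm13256, joined chr2:8670001-8680000 over 1200 kb with an FDR of 0.00907 and chr2:8750001-8760000 over 1120 kb with an FDR of 0.0337. Both distant bins held no annotated gene, and no coding gene lay between them and Gata3. The next bin, chr2:9880001-9890000, joined Taf3, a subunit gene of a general transcription factor, on the upstream side over 120 kb with an FDR of 0.00587. That bin ended 34 bases from the start of Gata3-202 and also held the starts of 4930412O13Rik and 9230102O04Rik, so the start that the loop reaches cannot be told at this bin size.

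The distant bin chr2:8670001-8680000 was the most used anchor of the set, with 4 loops that all ran right. Besides the Gata3 bin, it joined chr2:10000001-10010000 in Taf3 over 1330 kb with an FDR of 0.00169, the bin with the starts of Atp5c1 and Kin over 1410 kb with an FDR of 0.0375, and chr2:10290001-10300000 over 1620 kb with an FDR of 0.0109. These 3 loops enclosed Gata3. The Taf3 bin was joined both to the distant bin and to the bin at the 5′ end of Gata3, so that neighbouring bins at Gata3, the Taf3 bin and the distant bin were linked pairwise by calls of 120, 1200 and 1330 kb. Only 0.956% of all loops were longer than the 1620 kb loop. Apart from the anchors in Gata3 itself, the 1240 kb between its neighbouring anchors on both sides held none.

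Gata2, a factor of haematopoietic and endothelial cells that also takes part in inner ear morphogenesis, was enclosed by a pair of loops and held no anchor. It lies on the plus strand at chr6:88193891-88207032 (ENSMUSG00000015053.14). The loops measured 310 kb with an FDR of 0.00239 and 360 kb with an FDR of 0.00109, and they shared a right anchor in Ruvbl1, an ATPase gene, 296 kb downstream of the start site. The left anchor of the shorter loop, chr6:88180001-88190000 in the lincRNA Gm38708, ended 3891 bases upstream of the Gata2 start site. Both loops enclosed Dnajb8 and Eefsec along with Gata2. Only 11.4% of all genes had a nearer anchor than Gata2.

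Lmx1a, a factor that is lost in dreher mice and is needed to separate sensory patches of the ear, lies on the plus strand at chr1:167689237-167848741 (ENSMUSG00000026686.14). A loop of 220 kb with an FDR of 0.0169 fitted closely around it, from 9.24 kb upstream of the start site to 41260 bases past the end of the gene, with no other coding gene between the anchors. Another loop of the same length, 220 kb, lay wholly upstream and ended 49.2 kb from the start site, in the retinoid X receptor gene Rxrg. It had the much lower FDR of 0.000123. Its left anchor, chr1:167410001-167420000, also began a loop of 500 kb around both Rxrg and Lmx1a, with an FDR of 0.0729. Although Lmx1a is 159505 bases long, no anchor lay in it.

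Tbx1, the T-box gene whose loss contributes to DiGeorge syndrome and which is needed for growth of the otocyst, had 1 loop. The gene lies on the minus strand at chr16:18580979-18590671 (ENSMUSG00000009097.10). The loop of 160 kb, with an FDR of 0.000194, ran from Txnrd2, a mitochondrial thioredoxin reductase gene, to the lincRNA 4930588K23Rik, where its anchor began 9330 bases upstream of the Tbx1 start site. It enclosed Gnb1l and Rtl10 along with Tbx1. With 23 other coding start sites within 500 kb, Tbx1 had the most crowded surroundings of the set.

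**Figure D3:**
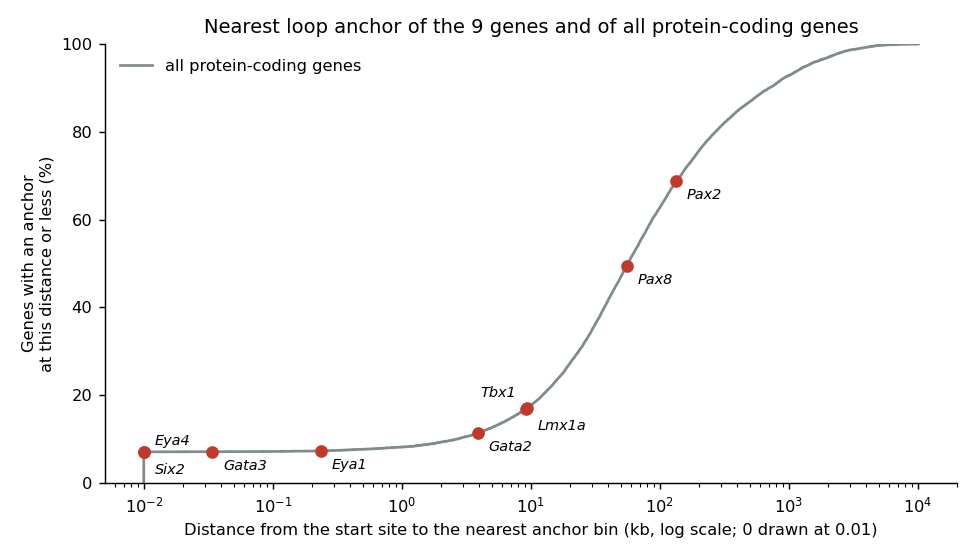
Distance from the start site to the nearest anchor bin (kb, log scale, with 0 drawn at 0.01) against the share of all protein-coding genes with an anchor at that distance or less (%). The line is all 21755 genes and the points are the 9 genes. Of these, 8 lie left of the median gene at 56.6 kb, and Pax2 at 134 kb lies right of it.

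Most of these genes were alone in the loop that enclosed them. Among the 8 spanned genes, the shortest spanning loop held no other coding gene in 5 (Pax2, Pax8, Eya1, Six2 and Lmx1a) and 3 coding genes, the member included, at each of Gata2, Gata3 and Tbx1. Of all spanned protein-coding genes, 25.1% were alone in this way, and the median was 3 coding genes. The median length of the shortest spanning loop was 310 kb for the 8 genes and 280 kb for all spanned genes. Of the 48 distinct anchor bins, 26 (54.2%) held no coding gene, against 40.2% of all anchor bins, and 9 (18.8%) served more than 1 loop, against 13.4%. The 48 bins were reached through their loops, and a bin with several loops has more ways to be among them. No excess of shared bins can therefore be read from 18.8% against 13.4%. The share of spanned genes that were alone was 45.7% among those with 0 to 8 coding neighbours within 500 kb and 3.44% among those with 29 to 72, and the part of gene density in the count at the 9 genes was not tested.

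**Figure D4:**
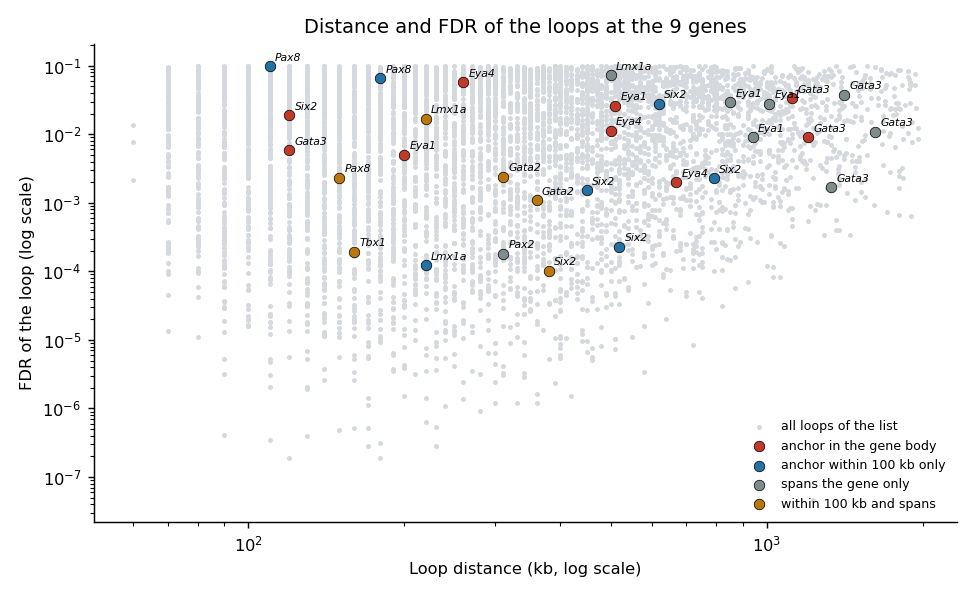
Distance between the anchors (kb, log scale) and FDR (log scale) of the 30 loops at the 9 genes, over all 6798 loops in grey. Colour tells loops with an anchor in the gene from those near it or spanning it. The 5 longest loops, of 1120 to 1620 kb, are all at Gata3, and the loop with the lowest FDR, 0.000102, encloses Six2.

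The sequence of the anchors was read for the consensus of CTCF, the zinc finger protein at which loops often end, allowing 1 mismatch in its 14 bases. A match lay in 20 of the 48 anchor bins of these genes (41.7%), against 48.4% of all anchor bins and 21.4% of all 10 kb bins of the genome. Both anchors held a match in 5 of the 30 loops (16.7%), against 26.4% of all loops. In 3 of these 5 the matches, read in the direction of the consensus, pointed towards each other, at Eya1, Eya4 and Tbx1, and in the other 2, at Eya1 and Lmx1a, they pointed the same way. Of the 1502 loops of the list with a direction assigned to each anchor, 68.3% pointed towards each other. The best matches in the 3 facing pairs are shown 5′ to 3′ on the strand of the match, with 8 flanking bases, and capitals mark the 14 bases at the coordinates given.
Eya1 940 kb loop, left, chr1:13789388-13789401, plus strand: cacagctgCCAGCAGATGGCAGcacccctt
Eya1 940 kb loop, right, chr1:14729233-14729246, minus strand: atacatttCCAGCAGGGGGCAGccgatgcc
Eya4 500 kb loop, left, chr10:23116968-23116981, plus strand: ggctatggCCACGAGGTGGCAGtatgggtc
Eya4 500 kb loop, right, chr10:23611369-23611382, minus strand: tattggcaCCACCAGGGGGTGCcaaaggac
Tbx1 160 kb loop, left, chr16:18443661-18443674, plus strand: cagagtggCCACGAGAGGGCGGcagaggct
Tbx1 160 kb loop, right, chr16:18603513-18603526, minus strand: taggtgccCCAGCAGAGGGAGCagtggctg
Both Eya1 matches had no mismatch, while those of the Eya4 and Tbx1 loops had 1 each.

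At the remaining loci a match stood in 1 anchor of a loop or in none. The left anchors of both Gata2 loops held matches that pointed towards the shared anchor in Ruvbl1, which had none. The Srbd1 end of the loop around Six2 held a match that pointed back towards Six2. Those at the nearer Gata2 anchor and in Srbd1 are shown in the same way.
Gata2 310 kb loop, left, chr6:88189632-88189645, plus strand: acgcgaagCCGCCAGGTGGCGCtctgaacc
Six2 380 kb loop, right, chr17:86054658-86054671, minus strand: tgtcacttCAACCAGATGGCAGcagcaggc
Neither anchor of the Pax2 loop held a match, and none lay in any of the 4 bins between Six3 and Six2. The absence of a match says only that these letters are not in the bin.

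Paralogs of these genes, and Dach1 and Dach2, were listed as relatives. Of the T-box genes only a chosen part was listed. Among 28 relatives, 14 held an anchor in the gene body, 25 had one within 100 kb of the start site and 18 were spanned. For the 7 Pax paralogs these counts were 2, 6 and 5, and the nearest anchors were those of Pax1 (at the start site) and Pax9 (1.77 kb). Pax2 and Pax8, with nearest anchors at 134 and 55.6 kb, lay farther than the median of 22.9 kb over these paralogs. For the 9 relatives of Eya1, Eya4 and Six2, which include the Dach genes of the same network, the counts were 5, 8 and 4, with Dach1 (at the start site) and Eya3 (1.01 kb) nearest. Six5 alone among them had no anchor within 100 kb.

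Of the other 4 Gata genes, 2 held an anchor, 3 had one within 100 kb and 2 were spanned. Gata6 had an anchor at its start site and Gata5 had one at 44.7 kb, beside 0.034 kb for Gata3 and 3.89 kb for Gata2. Gata1, on chromosome X, had its nearest anchor 2642 kb away. Lmx1b, the paralog of Lmx1a, had an anchor at its start site, anchors in its body and a loop around it. All 7 Tbx relatives that were listed, a part of the family, had an anchor within 100 kb, 4 held an anchor in the body and 6 were spanned. The start sites of Tbx2, Tbx15 and Tbx18 fell in anchor bins, and that of Tbx1 did not. Neighbours among these relatives, such as Six3 and Six2, share loops with each other, so these counts are not independent.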

How the data were processed

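Micro-C of whole mouse cochlea (4 replicates) was used, and the 12 ATAC-seq and CUT&RUN samples were not analysed here. The authors used BWA-MEM for alignment to mm10, retained chimeric read pairs, deduplicated them with pairtools, merged the replicates, built contact matrices with Juicer tools and ran the loop caller Mustache at 10 kb. Versions of these tools were not given in the sources used here. The submitters' processing notes name BWA, Juicer and mm10. The list deposited by the authors gives, per loop, the anchor coordinates, a q-value (the FDR, with a limit of 0.1) and a score, the detection scale assigned by the caller. The list gives no contact counts, and read depth was not used here, so no interval is given for a loop.

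Loop distance was taken from bin start to bin start. Genes and transcripts came from GENCODE vM21, and promoters from the RefSeq table of GRCm38.p6. Start sites were the 5′ ends of genes. Overlaps, distances and counts were computed with Python 3.11.15, numpy 2.4.6 and pandas 2.3.3 after the scripts were tested on simulated data, and figures were drawn with matplotlib 3.10.9. The 14-base CTCF consensus was written from general knowledge, and the best match of a bin gave its sequence. A bin with matches on both strands took the direction of the match with fewer mismatches. It was given no direction where the best matches of the strands had equally many. No test was run, since the list holds no value per replicate.

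All 9 members were named. Other genes were named where they lie in a partner anchor or between the anchors of the shortest spanning loop, and the 2 relatives with the nearest anchor were named per family. Gata1 and Six5 were added after their values were seen. The name of 1 relative and the sequence of 1 match are not reported here. The members and lists were chosen with earlier results of these data known. The alternatives were FDR limits of 0.05 and 0.01, windows of 50 and 200 kb, the smallest detection scale only, merging of calls within 100 kb, any transcript start as start site and spanning of the start site alone.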

Additional observations from a re-analysis of the deposited data

How the results depend on the processing

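Of 26 alternative values over the 6 counts and distances, 21 stayed within 1.5 times the value reported. With FDR below 0.01, the loops with an anchor in or near a member fell from 22 to 13 and the loops that span a member from 14 to 8. With loops of the smallest detection scale only, 9 loops spanned a member. The median distance from a start site to the nearest anchor, 3.89 kb in the whole list, was 9.24 kb with FDR below 0.05 and 9.33 kb with FDR below 0.01. In these settings fewer loops were kept, by construction. Members with an anchor within 100 kb numbered 7 at either FDR limit, where Eya4 no longer counted because its loop at the start site has an FDR of 0.0576, 7 with a window of 50 kb, 9 with a window of 200 kb and 6 with the smallest detection scale only, where 6 members were spanned. When only the start site had to lie between the anchors, all 9 members were spanned, Eya4 included. At FDR below 0.01 the body of Six2 no longer held an anchor and Lmx1a was no longer spanned. The shares of all genes in these settings are not given here, so these counts of members cannot be set against them. No paired analysis was possible because the list used here was made from merged replicates, and for the same reason no replicate was left out. Bins of 10 kb limit which start site an anchor can be assigned to.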

Other observations

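Another 20 regulators of ear development, among them Sox2, Jag1, Bmp4, Isl1 and Neurog1, were placed on the list in the same way. An anchor lay in the gene body in 8 of them and within 100 kb of the start site in 18, a loop spanned 18, and the start site fell in an anchor bin in 6. These shares were 40%, 90%, 90% and 30%. For the 9 genes they were 44.4%, 88.9%, 88.9% and 22.2%, and for all genes 24.1%, 62.7%, 28.1% and 7.1%. The high shares near and around the gene were thus not particular to the 9 genes. The median distance from the start site to the nearest anchor was 5.75 kb. The nearest anchors were those of Gbx2, Isl1, Sox2, Sox9, Dlx5 and Jag1, whose start sites fell in an anchor bin. Otx1 and Fgf10 were the genes without an anchor within 100 kb, with nearest anchors at 197 and 270 kb, and each was spanned by 1 loop, as Pax2 was. Sox2, a factor of prosensory cells, had 3 loops with an anchor within 100 kb and was spanned by 2. Jag1, a Notch ligand of the prosensory domain, held an anchor of 3 loops in its body and was spanned by 4, more than any of the 9 genes. These genes were named after their values were seen.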
